A study of Mus musculus with 28 samples.

Results

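A set of 7 genes of the corticosteroid stress system were followed through the layers of the mouse hippocampus. They were picked by symbol from the deposited gene table of 49341 genes, and all 7 were among the 24911 genes tested. Nr3c1 encodes the glucocorticoid receptor and Nr3c2 the mineralocorticoid receptor. Hsd11b1 encodes the enzyme that regenerates active corticosterone from its inert keto form. Fkbp5 encodes a co-chaperone of the receptors, Sgk1 a serum- and glucocorticoid-regulated kinase, and Tsc22d3 the glucocorticoid-induced leucine zipper protein, Gilz. Crhr1 encodes the main receptor of corticotropin-releasing hormone.

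Corticosterone enters neurons freely and binds both receptors, which wait in the cytoplasm in complexes with Hsp90 and then act in the nucleus as transcription factors. The mineralocorticoid receptor binds the hormone with the higher affinity and is occupied at low hormone levels, whereas the glucocorticoid receptor is filled as levels rise with stress or the daily peak. Fkbp5 is itself a target of the glucocorticoid receptor and lowers its sensitivity, a short feedback loop inside the cell. The hippocampus is among the brain regions richest in both receptors.

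The libraries came from 3 male Amigo2-GFP C57BL/6J mice aged 6 to 8 weeks, from separate litters, numbered 492, 496 and 502. All 3 carry a green fluorescent reporter, and brains were taken late in the light phase. The labels name no stressor, hormone or drug, so no group is a stress model. Laser capture on 8 µm sections separated cell bodies from dendrites in the dentate gyrus (DG), CA3, CA2 and CA1 of each mouse, which makes 8 groups of 3 libraries. Cell body libraries started from 5 ng of RNA and dendritic libraries from 1 ng, so input amount and layer cannot be told apart. For the CA2 and DG dendrites of mice 492 and 502 the labels list a repeat library besides the first, and which of them the 4 deposited columns hold is not known.

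Each cell body layer carried its own markers: 5 of 5 CA1 markers, 8 of 8 CA2 markers, 4 of 6 CA3 markers and 7 of 7 granule cell markers were higher in their own subregion than in the other 3. The dendritic layers hold glia and vessels as well as dendrites. Against the cell body layers, markers of astrocytes (10 of 10), oligodendrocytes (10 of 10), microglia (10 of 10), endothelium (10 of 10) and mural cells (7 of 7) were all higher. Interneuron markers were higher for 8 of 10 and lower for 1. Between these layers 19.8% of all genes were called higher and 25.4% lower. Mitochondrially encoded RNAs made up 4.21% to 9.08% of the normalized estimates in cell body libraries and 29.5% to 46.9% in dendritic ones. The CA1 dendritic libraries of mice 492 and 496 stood apart, with medians of 7.56 and 7.54 (log2) over the genes tested where the others lay between 6.31 and 7.32. The deposited values are already normalized and give no read depth. In bulk tissue, fewer cells of a type and less RNA per cell cannot be told apart.

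Values below are deposited log2 estimates, given for mice 492, 496 and 502 in that order, and differences are log2 differences between group means with the standard error (SE) of limma's fit. A difference was called at an adjusted p below 0.05 over all genes tested. Wherever groups are said not to overlap, the share of all genes that separate in this way was not counted. Between dendritic and cell body layers, averaged over the 4 subregions, 3 of the 7 genes were higher (Hsd11b1, Tsc22d3 and Nr3c1), 3 were lower (Nr3c2, Crhr1 and Fkbp5), and Sgk1 was not called. In that comparison 45.2% of all genes were called, 19.8% higher and 25.4% lower, so 6 calls among 7 genes are to be read against a high background. The median of all genes was -0.20. Between subregions fewer genes were called, and among cell body layers Nr3c1 was highest in CA1 and Nr3c2 and Fkbp5 in CA2.

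**Figure D1:**
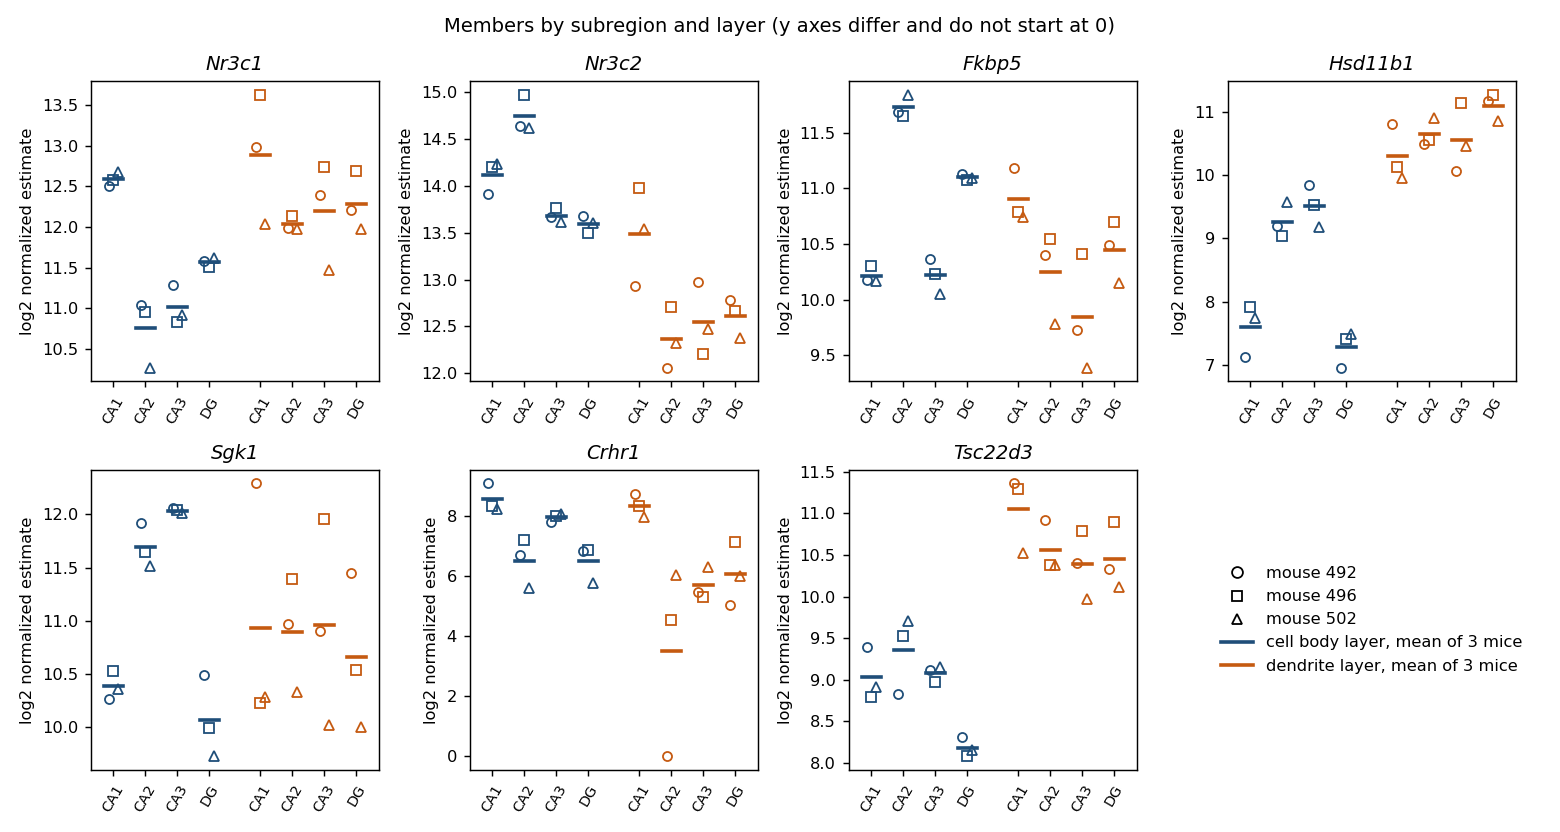
Deposited log2 estimates of the 7 genes in each of the 24 libraries (y axis, log2; each panel has its own range) by subregion and layer (x axis); symbols are mice and bars the mean of 3. Among cell body layers Nr3c1 is highest in CA1 and Nr3c2 and Fkbp5 in CA2, and the 12 dendritic values of Hsd11b1 and Tsc22d3 lie above all 12 cell body values. The share of all genes that separate in this way was not counted.

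Nr3c1 (chromosome 18, 39410545 to 39519421, minus strand, GRCm38) was highest in CA1 among cell body layers. In cell bodies its log2 values were 11.58, 11.50 and 11.61 in DG, 11.29, 10.82 and 10.91 in CA3, 11.04, 10.95 and 10.27 in CA2, and 12.51, 12.58 and 12.67 in CA1. Every CA1 value lay above all 9 others, and the order of means was CA1, DG, CA3, CA2. CA1 exceeded the mean of the other 3 by 1.48 (SE 0.22, adjusted p 4.3e-05 in limma, 3 of 3 mice), a 2.78-fold difference. CA2 was lower than the mean of its other 3 (-0.97, SE 0.22, adjusted p 0.0045), and CA3 and CA2, neighbours at the bottom of the order, did not pass a test between them (CA2 minus CA3 -0.25, adjusted p 0.90). Nor did DG and CA3 (CA3 minus DG -0.56, adjusted p 0.21), although CA2 was lower than DG (-0.81, adjusted p 0.038).

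In dendritic layers the glucocorticoid receptor transcript was more even. Its values were 12.21, 12.69 and 11.97 in DG, 12.39, 12.74 and 11.47 in CA3, 11.99, 12.14 and 11.97 in CA2, and 12.98, 13.63 and 12.03 in CA1. All 4 groups overlapped in range with another group. CA1 was called higher than the other 3 (0.71, adjusted p 0.034), but without the 2 libraries of high median the value was 0.08 (adjusted p 0.95), and it was not called under quantile scaling or scaling to totals. Dendritic layers exceeded cell bodies by 0.87 on average (SE 0.13, adjusted p 7.7e-06, 3 of 3 mice), a 1.83-fold difference. In CA2 and CA3, where cell bodies held least, the dendritic values lay wholly above them, by 1.28 (adjusted p 0.00071) and 1.19 (adjusted p 0.0018). In DG the layers did not overlap, and the difference of 0.72 did not pass (adjusted p 0.057). In CA1 it was 0.30 (adjusted p 0.48) and turned to -0.69 (adjusted p 0.025) with libraries scaled to totals, where the median of all genes was -1.01.

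Nr3c2 (chromosome 8, 76899442 to 77245012, plus strand) had its peak in CA2. Cell body values were 13.68, 13.50 and 13.60 in DG, 13.67, 13.77 and 13.62 in CA3, 14.64, 14.97 and 14.62 in CA2, and 13.91, 14.21 and 14.24 in CA1. The 3 CA2 values lay above all others, and the CA1 values above those of CA3 and DG. CA2 exceeded the mean of the other 3 by 0.95 (SE 0.18, adjusted p 0.00082), a 1.93-fold difference. It was higher than DG (1.15, adjusted p 0.00041) and CA3 (1.06, adjusted p 0.0041), and its difference from CA1, next in the order, did not pass (CA1 minus CA2 -0.63, adjusted p 0.10). CA3 and DG, the lowest pair, were 0.09 apart (adjusted p 0.90). DG was called lower than the mean of the other 3 as deposited (-0.59, adjusted p 0.023), but with quantile scaling the difference was 0.13 and with scaling to totals 0.02. The CA2 call was also lost under both (0.52, adjusted p 0.18, and 0.54, adjusted p 0.20). Less the median of all genes under each scaling, the CA2 difference was 0.85 as deposited, 0.55 under quantile scaling and 0.84 under totals.

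The mineralocorticoid receptor transcript was lower in the dendrites of every subregion. Dendritic values were 12.79, 12.66 and 12.38 in DG, 12.97, 12.20 and 12.47 in CA3, 12.06, 12.71 and 12.32 in CA2, and 12.93, 13.98 and 13.54 in CA1. CA2, highest in cell bodies, had the lowest mean in dendrites, and CA1 had the highest. Dendritic layers differed from cell bodies by -1.28 on average (SE 0.11, adjusted p 5.6e-10, 3 of 3 mice), and all 4 subregions were called lower. The step was -0.64 in CA1 (adjusted p 0.037), -0.99 in DG (adjusted p 0.0017), -1.14 in CA3 (adjusted p 0.00042) and -2.38 in CA2 (adjusted p 1.2e-08), a 5.22-fold drop. The CA1 call was lost without the dendritic library of mouse 492 (-0.35, adjusted p 0.28). The CA2 step was deeper than that of the other 3 by a test of that difference (-1.47, adjusted p 0.00067), a call lost under quantile scaling (-0.81, adjusted p 0.20) and scaling to totals (-0.94, adjusted p 0.16) and without the 4 libraries that have a repeat (-1.19, adjusted p 0.080). In dendrites CA1 was higher than the other 3 (0.98, SE 0.18, adjusted p 0.00068), a call lost on scaling to totals (0.39, adjusted p 0.33).

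Setting the receptors against each other within a library removes the scaling of that library. The estimates are not per length, so only the change of this value between groups can be read. In cell bodies, log2 Nr3c2 minus log2 Nr3c1 was 2.09, 2.00 and 1.99 in DG, 2.38, 2.95 and 2.70 in CA3, 3.60, 4.02 and 4.35 in CA2, and 1.40, 1.63 and 1.56 in CA1. The 4 subregions did not overlap, and the balance was tilted furthest toward the mineralocorticoid receptor in CA2 and least in CA1. The CA2 value exceeded the mean of the other 3 by 1.91 (SD 0.320 over 3 mice, exact permutation p 0.0156, the smallest that 64 choices allow, 0.0703 adjusted over 9 comparisons). CA1 lay on the other side (-1.37, SD 0.0814, exact permutation p 0.0625, adjusted 0.188). In dendrites the means fell to between 0.32 and 0.60 with overlapping subregions, and no dendritic comparison passed (exact permutation p 0.438 to 0.922). The dendritic value was lower in 12 of 12 pairs of layers from the same mouse and subregion, with a mean difference of -2.16 (SD 1.19, exact sign-flip p 0.000488, adjusted 0.00439). These pairs come from 3 mice. Averaged within mice the difference was -2.08, -2.56 and -1.83, and over 3 mice the exact sign-flip p was 0.25, the smallest such a design allows.

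**Figure D2:**
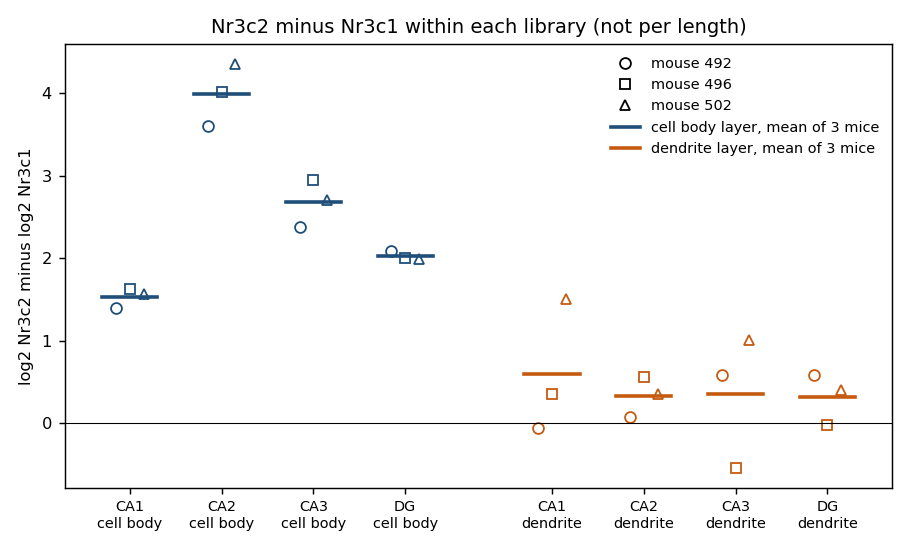
Log2 Nr3c2 minus log2 Nr3c1 in each library (y axis, log2 units, not per length) by subregion and layer (x axis); symbols are mice and bars the mean of 3. Cell body values run from 1.40 in CA1 to 4.35 in CA2, and all dendritic values lie between -0.54 and 1.51.

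Hsd11b1 (chromosome 1, 193221634 to 193264075, minus strand), the hormone-activating enzyme, had the largest step between layers of the 7 genes. Cell body values were 6.97, 7.42 and 7.49 in DG, 9.84, 9.53 and 9.18 in CA3, 9.19, 9.04 and 9.57 in CA2, and 7.14, 7.92 and 7.75 in CA1. CA2 and CA3 lay above CA1 and DG with no overlap. Dendritic values were 11.16, 11.27 and 10.86 in DG, 10.07, 11.13 and 10.45 in CA3, 10.49, 10.55 and 10.90 in CA2, and 10.81, 10.12 and 9.95 in CA1. All 12 dendritic values lay above all 12 cell body values, and how many of all genes separate in this way was not counted.

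The average step was 2.23 (SE 0.16, adjusted p 2.7e-11), or 4.68-fold. It was 3.80 in DG (SE 0.33, adjusted p 2.0e-09), a 13.97-fold difference, 2.69 in CA1 (adjusted p 5.7e-07), 1.38 in CA2 (adjusted p 0.0021) and 1.03 in CA3 (adjusted p 0.023). The DG step exceeded that of the other 3 (2.10, adjusted p 0.00073) and the CA3 step fell short of it (-1.59, adjusted p 0.024). In dendrites no subregion passed against the other 3 as deposited (adjusted p 0.22 to 1). CA1 (-0.47, adjusted p 0.26) was called lower there under quantile scaling (-0.95, adjusted p 0.018), scaling to totals (-1.06, adjusted p 0.0080) and totals outside the mitochondrial genome (-1.02, adjusted p 0.0085). In cell bodies 4 of 4 subregions did: CA3 (1.46, adjusted p 0.00050) and CA2 (1.13, adjusted p 0.0060) were higher, and CA1 (-1.09, adjusted p 0.010) and DG (-1.51, adjusted p 0.00015) lower. CA2 and CA3 did not pass a test between them (-0.25, adjusted p 0.94), nor did CA1 and DG (0.31, adjusted p 0.79).

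Glial markers moved with Hsd11b1 between layers. Among cell body layers the sums of oligodendrocyte and astrocyte markers did so too, and those of microglia did not. The log2 sum of the 10 astrocyte markers ran from 13.53 to 14.12 in cell body libraries and from 16.83 to 17.72 in dendritic ones, and that of the 10 microglia markers from 11.21 to 11.88 and from 14.46 to 15.65. Among cell body layers the 10 oligodendrocyte markers followed the same split as Hsd11b1, with log2 sums of 13.61 to 13.69 in CA1 and 13.58 to 14.59 in DG against 15.09 to 15.58 in CA2 and 15.42 to 15.75 in CA3. Of these 10 markers, 8 were called higher in CA2, 10 higher in CA3, 9 lower in CA1 and 9 lower in DG. Of all genes, 8.97% were called in CA2, 7.04% in CA3, 5.98% in CA1 and 17.2% in DG, in either direction. Other lists split the same way among cell body layers. CA3 pyramidal sums were 13.43 to 13.58 in CA2 and 14.73 to 14.87 in CA3. In CA1 they were 10.89 to 11.22 and in DG 10.55 to 10.72. Astrocyte and mural sums were also higher in CA2 and CA3 with no overlap. Sums of microglia, endothelial and interneuron markers overlapped. None of the astrocyte, oligodendrocyte or endothelial markers was at 0 in any library. The part of these cell types in the Hsd11b1 result was not tested. By likeness of pattern, the 3 genes closest to Hsd11b1 over the 8 group means were Nkx2-2 (r = 0.997), Acsl6 (r = 0.991) and Gatm (r = 0.988).

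Fkbp5 (chromosome 17, 28399094 to 28517527, minus strand), the feedback co-chaperone, was highest in CA2 cell bodies. Its cell body values were 11.13, 11.08 and 11.09 in DG, 10.37, 10.23 and 10.06 in CA3, 11.68, 11.65 and 11.84 in CA2, and 10.17, 10.30 and 10.17 in CA1. CA2 stood above DG, and DG above CA1 and CA3, with no overlap at either step. CA2 exceeded the mean of the other 3 by 1.21 (SE 0.19, adjusted p 0.00010), a 2.32-fold difference. CA1 (-0.80, adjusted p 0.0095) and CA3 (-0.80, adjusted p 0.0091) were lower than their other 3. CA2 and DG, neighbours in the order, did not pass a test between them (0.63, adjusted p 0.073), and CA1 and CA3 did not pass either (adjusted p 1.0).

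The dendritic order was another one. Values were 10.49, 10.70 and 10.15 in DG, 9.73, 10.41 and 9.39 in CA3, 10.41, 10.55 and 9.78 in CA2, and 11.19, 10.79 and 10.74 in CA1. The CA1 values lay above all others, and the other 3 subregions overlapped. In the CA1 dendritic library of mouse 492, the highest, the listed transcript Fkbp5-201 held 64.5% of the gene's estimate. The share was 101% and 96.8% in mice 496 and 502, after each library's median offset. It was 65.1% and 73.7% in CA2 dendrites of mice 492 and 502. Estimates of Fkbp5-201 were 10.39, 10.49 and 10.63 in CA1 dendrites, which overlapped DG dendrites (10.30, 10.55 and 10.27). They also overlapped CA1 cell bodies (10.10, 10.51 and 10.29). CA1 was higher than the other 3 (0.73, adjusted p 0.014). That call was kept in 5 of 10 other settings of scaling, filter, model and libraries. It was kept in 24 of 27 settings that leave out a library or mouse. Scaling to totals was among the settings that lost it (0.14, adjusted p 0.66). Dendrites held less than cell bodies on average (-0.46, SE 0.12, adjusted p 0.0027), but the subregions went separate ways. CA2 (-1.48, adjusted p 3.1e-05) and DG (-0.65, adjusted p 0.049) were lower, CA3 did not pass (-0.38, adjusted p 0.30), and CA1 was higher in dendrites (0.69, adjusted p 0.034). In 27 settings that leave out a library or mouse, CA2 kept its call in 27, CA1 in 19 and DG in 9. In 10 other settings CA2 kept it in 10, DG in 7 and CA1 in 5. The CA1 step differed from that of the other 3 (1.53, adjusted p 0.00092), as did the CA2 step in the opposite direction (-1.37, adjusted p 0.0024). The call that the CA2 step differed from the other 3 was lost under quantile scaling (-0.87, adjusted p 0.060), scaling to totals (-0.84, adjusted p 0.064) and totals outside the mitochondrial genome (-0.72, adjusted p 0.089), and without the 4 libraries that have a repeat (-1.20, adjusted p 0.083). The difference between layers in CA1 turned to -0.29 on scaling to totals, where the median gene stood at -1.01.

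Sgk1 (chromosome 10, 21882184 to 21999903, plus strand) is transcribed from several starts, and the deposited table lists 3 of its transcripts. The 250 bases before each start are shown because the transcripts behaved differently between layers, and because the receptors bind DNA at paired 6-letter motifs. The letters TGTTCT and their reverse complement AGAACA were searched on both strands and are printed in capitals. Sequences are RefSeq's, build GRCm38.p6, plus strand, 5′ to 3′.
Before Sgk1-204, chr10:21881934-21882183: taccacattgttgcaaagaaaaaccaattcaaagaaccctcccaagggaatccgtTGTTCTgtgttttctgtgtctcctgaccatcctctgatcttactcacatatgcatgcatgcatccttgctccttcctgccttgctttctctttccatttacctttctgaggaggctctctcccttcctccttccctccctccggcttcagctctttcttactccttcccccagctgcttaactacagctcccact
Before Sgk1-202, chr10:21993640-21993889: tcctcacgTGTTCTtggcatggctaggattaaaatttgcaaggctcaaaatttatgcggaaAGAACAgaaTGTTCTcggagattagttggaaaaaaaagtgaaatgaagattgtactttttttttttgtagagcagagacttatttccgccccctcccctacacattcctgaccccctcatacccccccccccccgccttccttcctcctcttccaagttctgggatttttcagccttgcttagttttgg
Before Sgk1-201, chr10:21994416-21994665: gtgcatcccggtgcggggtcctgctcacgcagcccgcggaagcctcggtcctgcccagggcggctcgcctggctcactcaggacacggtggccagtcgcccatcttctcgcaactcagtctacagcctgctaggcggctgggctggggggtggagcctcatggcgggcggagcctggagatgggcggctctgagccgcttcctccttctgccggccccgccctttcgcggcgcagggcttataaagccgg

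The window of Sgk1-202 held 3 matches, and a pair of them, counted among the 3, form the full motif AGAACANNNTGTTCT. The window of Sgk1-204 held 1 match and that of Sgk1-201 none. Another 3 annotated starts of Sgk1, where no deposited transcript starts, had 1 match among them. Of 32851 such windows before annotated starts in the mouse genome, 16.1% held at least 1 match to the 6-letter motif and 3 (0.00913%) held the full motif. Windows before annotated starts of Nr3c2, Fkbp5, Crhr1 and Hsd11b1 held no match, and 1 of 3 windows of Tsc22d3 held 1. A match is a string of letters and not a measured binding site.

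At the level of the gene, Sgk1 peaked in CA3 and CA2 cell bodies. Values were 10.49, 10.00 and 9.73 in DG, 12.06, 12.04 and 12.01 in CA3, 11.92, 11.64 and 11.52 in CA2, and 10.26, 10.53 and 10.36 in CA1. CA3 lay above CA2 without overlap, and both lay above CA1 and DG, which overlapped. CA3 was higher than the other 3 (1.32, SE 0.32, adjusted p 0.0081), a 2.49-fold difference, and DG was lower (-1.30, adjusted p 0.0040). CA3 and CA2 did not pass a test between them (CA2 minus CA3 -0.34, adjusted p 0.91), nor did CA1 and DG (0.31, adjusted p 0.85). Over the 4 cell body means Sgk1 and Hsd11b1 had r = 0.998, a description of 4 points. The oligodendrocyte, astrocyte, mural and CA3 pyramidal markers given above moved with Sgk1 too, and their part in it was not tested.

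Averaged over subregions, the Sgk1 gene was not called between layers. Dendritic values were 11.45, 10.54 and 10.00 in DG, 10.91, 11.95 and 10.02 in CA3, 10.97, 11.39 and 10.33 in CA2, and 12.29, 10.23 and 10.28 in CA1. All 4 groups overlapped, and the 3 mice of a group spread widely. The mean difference from cell bodies was -0.18 (SE 0.19, adjusted p 0.48). CA3 was called lower (-1.08, adjusted p 0.048), a call kept in 4 of the 10 alternative settings of scaling, filter, model and libraries. In the CA1 dendritic library of mouse 492, the highest for this gene, the listed transcripts held 25.9% of the gene's estimate, against 107% and 117% in mice 496 and 502 after the median offset of each library. The share was also low in the dendritic libraries of DG in mouse 492 (39.2%), CA3 in mouse 496 (48.1%) and CA2 in mouse 496 (67.8%), and 88.0% or more in the other 8.

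One Sgk1 transcript did differ between layers. The estimate of Sgk1-204, the transcript from the far upstream start, was 9.35, 9.17 and 9.22 in CA1 cell bodies, 10.29, 10.15 and 10.13 in CA2, 10.85, 10.64 and 10.73 in CA3, and 7.78, 7.61 and 7.84 in DG. In dendrites it was 5.58, 6.78 and 7.15 in DG, 8.85, 8.18 and 8.39 in CA3, 5.75, 7.57 and 8.09 in CA2, and 8.07, 2.92 and 6.55 in CA1. In every subregion all 3 dendritic values lay below all 3 cell body values. The share of all transcripts that separate in this way was not counted. Its share of the listed Sgk1 transcripts averaged 17.7% in DG, 39.4% in CA3, 34.2% in CA2 and 44.2% in CA1 cell bodies, and 8.9%, 22.0%, 12.1% and 10.2% in the dendrites of the same subregions. Against the other transcripts of the gene it was lower in dendrites by limma's diffSplice (-2.42, adjusted p 0.0077) and also against the summed rest of the gene with its own spread (-2.20, adjusted p 0.012). Of all 34762 transcripts tested, 10.1% and 8.77% were called by these tests. Sgk1-201, the main transcript, kept within 9.06 to 11.41 in cell bodies and 9.51 to 11.09 in dendrites. It was not called by diffSplice (adjusted p 0.52) or against the summed rest of the gene (adjusted p 0.092). Nor was Sgk1-202, whose window held the full motif (diffSplice 1.68, adjusted p 0.077, and 1.03, adjusted p 0.44, against the summed rest). Some estimates of Sgk1-202 were low, down to 2.77 in CA2 cell bodies of mouse 502.

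**Figure D3:**
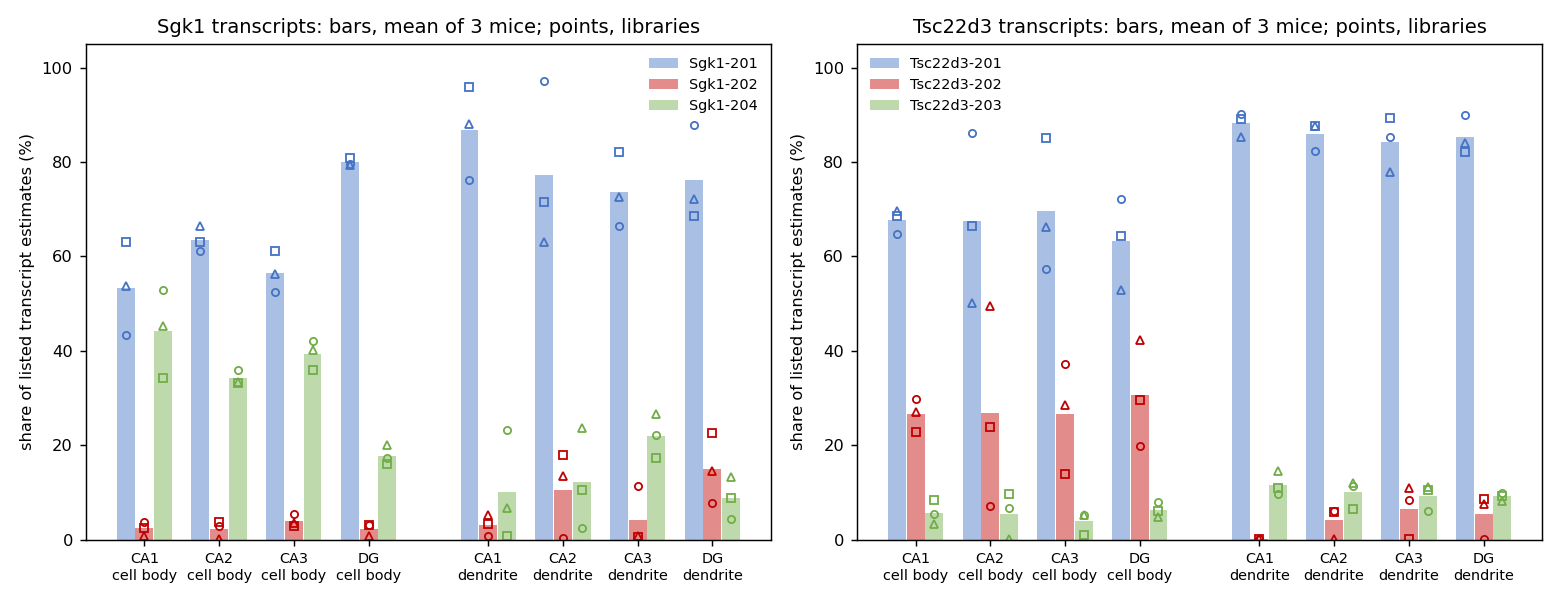
Share of each listed transcript among the listed estimates of its gene (y axis, percent) for Sgk1 (left) and Tsc22d3 (right) by subregion and layer (x axis); bars are means of 3 mice and points single libraries, with circles for mouse 492, squares for 496 and triangles for 502. Mean shares of Sgk1-204 are 17.7% to 44.2% in cell bodies and 8.9% to 22.0% in dendrites, and those of Tsc22d3-202 are 26.6% to 30.6% and 0.12% to 6.5%.

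Tsc22d3 (chromosome X, 140539528 to 140600659, minus strand), a classical glucocorticoid target in immune cells, was higher in the dendritic layer of every subregion. Cell body values were 8.32, 8.08 and 8.15 in DG, 9.12, 8.98 and 9.15 in CA3, 8.83, 9.52 and 9.71 in CA2, and 9.40, 8.79 and 8.92 in CA1. DG lay below the other 3, which overlapped. Dendritic values were 10.33, 10.90 and 10.11 in DG, 10.41, 10.79 and 9.97 in CA3, 10.92, 10.37 and 10.38 in CA2, and 11.36, 11.29 and 10.52 in CA1. All 12 were above all 12 cell body values, and the subregions overlapped. The share of all genes with such a separation was not counted.

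The average step was 1.70 (SE 0.15, adjusted p 1.3e-09), or 3.25-fold, with 2.26 in DG (adjusted p 3.6e-06), 2.02 in CA1 (adjusted p 1.6e-05), 1.31 in CA3 (adjusted p 0.0026) and 1.20 in CA2 (adjusted p 0.0041). In cell bodies DG was lower than the other 3 (-0.97, SE 0.25, adjusted p 0.0065), lost on scaling to totals (-0.37, adjusted p 0.24). Its 3 transcripts moved unequally. Tsc22d3-202 took a mean share of 26.6% to 30.6% in the cell bodies of the 4 subregions and 0.12%, 4.1%, 6.5% and 5.4% in CA1, CA2, CA3 and DG dendrites. Relative to the rest of the gene it was lower in dendrites (diffSplice -5.49, adjusted p 7.8e-07, and -5.07, adjusted p 0.0022, with its own spread). Tsc22d3-203 (diffSplice 3.44, adjusted p 0.0014) was relatively higher in dendrites, but not against the summed rest of the gene (1.38, adjusted p 0.13). Tsc22d3-201, the main transcript, was higher there by the latter test only (1.56, adjusted p 0.011). In dendrites the log2 values of Tsc22d3-202 ran from 0.34 to 7.07 and were near the floor in part of the libraries. The glial and vascular markers that were higher in dendrites moved with Tsc22d3 and Nr3c1 as with Hsd11b1, and their part was not tested. The other 3 transcripts called by diffSplice between layers were Nr3c2-203 (-1.97, adjusted p 0.0071), Nr3c2-202 (1.79, adjusted p 0.016) and Hsd11b1-205 (-2.55, adjusted p 0.040), and against the summed rest of their gene none of these passed (adjusted p 0.079, 0.12 and 0.21). Leaving out 1 mouse gave 2 to 4 diffSplice calls between layers in place of 6. Fkbp5 and Crhr1 have 1 listed transcript each and were not tested for unequal change. Between cell body layers none of the 19 tested transcripts of the other genes passed diffSplice. The background there was 0.253% in DG, 0.0518% in CA3, 0.138% in CA2 and 0.046% in CA1. At an unadjusted p below 0.05 diffSplice gave 0 of these 76 tests and the test against the rest of the gene 1, which called none either (background 0.127%, 0%, 0.0403% and 0.023% in the same order). The closest genes to Tsc22d3 by pattern were Vegfb (r = 0.995), Ppp1r16a (r = 0.992) and Btd (r = 0.991), and 418 of 13103 candidate genes reached r = 0.95.

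Crhr1 (chromosome 11, 104132855 to 104175523, plus strand) was the one gene of the 7 with a library listed at 0. Cell body values were 6.84, 6.89 and 5.79 in DG, 7.80, 8.02 and 8.08 in CA3, 6.71, 7.20 and 5.61 in CA2, and 9.10, 8.34 and 8.25 in CA1. CA1 lay above CA3, and CA3 above CA2 and DG, without overlap, yet no cell body comparison of this gene passed (adjusted p 0.40 to 0.80 against the other 3). Dendritic values were 8.74, 8.36 and 7.97 in CA1, 5.46, 5.32 and 6.32 in CA3, and 5.03, 7.16 and 6.01 in DG. In CA2 dendrites mice 496 and 502 had 4.55 and 6.03, and mouse 492 was listed at 0. CA1 dendrites stood above the other 9 libraries.

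CA1 dendrites exceeded the other 3 by 3.26 (SE 0.79, adjusted p 0.0075), a contrast that includes the library at 0. Without mouse 492 in CA1 dendrites the value was 2.79 (adjusted p 0.062), and without both CA1 libraries of high median 2.69 (adjusted p 0.42). The call of a lower level in CA2 dendrites (-3.18, adjusted p 0.027) became -1.42 (adjusted p 0.41) without the library at 0. Between layers the average was -1.47 (SE 0.48, adjusted p 0.015), and it was -0.81 (adjusted p 0.11) without mouse 492. The CA2 step of -2.98 (adjusted p 0.022) became -1.22 (adjusted p 0.26) without that library. In CA1 the layers did not pass a test between them (-0.21, adjusted p 0.92) and overlapped.

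**Figure D4:**
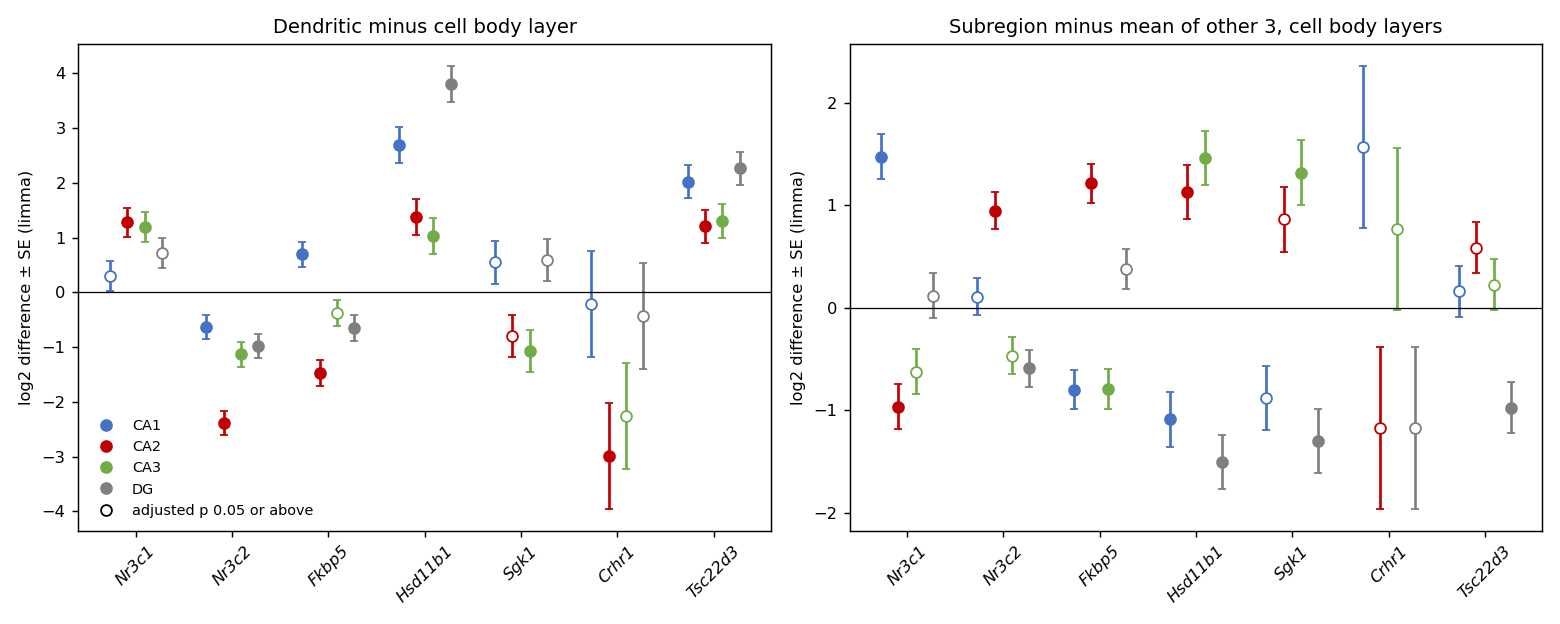
Log2 differences with limma's SE (y axes) for the 7 genes (x axes): dendritic minus cell body layer in each subregion (left) and each subregion minus the mean of the other 3 in cell bodies (right); open symbols did not pass at an adjusted p of 0.05. Hsd11b1 and Tsc22d3 are above 0 and Nr3c2 below 0 in all 4 subregions on the left, and on the right Nr3c1 is above 0 and called in CA1, and Nr3c2 and Fkbp5 in CA2.

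Counted by comparison, dendrites differed from cell bodies for 4 of the 7 genes in DG (background 22.3% of all genes), 5 in CA3 (22.1%), 6 in CA2 (28%) and 4 in CA1 (24.8%). Among cell bodies, 3 genes set CA1 apart from the other 3 subregions (background 5.98%), 4 CA2 (8.97%), 3 CA3 (7.04%) and 4 DG (17.2%). Among dendrites, 4 set CA1 apart (13.2%), 1 CA2 (2.57%), and none CA3 (2.16%) or DG (6.96%). At an unadjusted p below 0.05, 1 gene passed in CA3 (Fkbp5) and 1 in DG (Hsd11b1), and scaling to totals called 1 in each. The step between layers differed by subregion for 1 gene in DG (4.29%), 1 in CA3 (1.73%), 2 in CA2 (7.17%) and 2 in CA1 (6.37%), all of them Nr3c2, Fkbp5 or Hsd11b1. Comparisons within a layer share the same 12 libraries. By pairs of cell body layers, 19 of 42 tests passed: 5 between CA2 and DG (background 17.2%), 4 between CA1 and CA2 (7.26%), 3 between CA1 and CA3 (6.58%), 3 between CA3 and DG (14.5%), 2 between CA1 and DG (10%) and 2 between CA2 and CA3 (3.58%). Among dendrites 6 of 42 passed, and all 6 set CA1 against CA2 (3, background 9.82%), CA3 (2, 5.67%) or DG (1, 12.6%). The pairs among the other subregions gave no call in limma (background 1.14% for CA2 and CA3, 2.38% for CA2 and DG, 5.57% for CA3 and DG), and 1 gene in each had an unadjusted p below 0.05 (Crhr1, Crhr1 and Fkbp5).

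Other genes of the pathway were read from lists. Of 19 receptor chaperones and coregulators, 14 were lower in dendrites (background 25.4%) and the other 5 did not pass, with a median of -0.62 against -0.20 for all genes. Hspa8 (-1.06), Hsp90aa1 (-1.27) and Hsp90ab1 (-1.02), the core chaperones of the unliganded receptors, were the clearest. In cell bodies 10 of the 19 were lower in DG (Hspa8 -1.26, Hsp90aa1 -1.53, Nrip1 -1.16), while 4 were higher in CA2 and 3 in CA3. Of all genes 17.2%, 8.97% and 7.04% were called in these comparisons, in either direction. In CA1 cell bodies Nrip1, a corepressor of nuclear receptors, was higher (1.40), as was the coactivator Ncoa2 (0.57).

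Of 20 genes listed as induced by glucocorticoids, 9 were higher in dendrites and 5 lower (background 19.8% and 25.4%), with a median of 0.85 against -0.20 for all genes. The metallothioneins Mt2 (2.97) and Mt1 (2.56) and the hypoxia-response factor Hif3a (3.07) had its smallest adjusted p-values. The 5 that were lower were Klf9 (-0.73), Bcl6 (-0.74), Cebpd (-1.21), Ddit4 (-0.60) and Errfi1 (-1.65). The group means of Klf9, a Krüppel-like transcription factor, followed those of Nr3c2 more closely than any other candidate gene (r = 0.983), ahead of Psmb3 (r = 0.982) and Slc25a17 (r = 0.980). In CA2 cell bodies, where 8.97% of all genes were called, 5 of the 20 were higher (Bcl6 1.58, Mt2 1.55, Mt1 1.59), with a median of 0.60 against 0.10 for all genes. Mt1 and Mt2 are also expressed by astrocytes, 2 of whose 10 markers were higher in CA2 cell bodies. Bcl6, a zinc-finger repressor, was far lower in CA3 (-4.07) and higher in CA1 (1.39) and DG (1.10).

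Of 12 tested genes of steroid synthesis, breakdown and carriage, 4 were higher and 1 lower in dendrites (median 0.54), a share near the 45.2% of all genes called. Abcb1a (3.45), the efflux pump of the blood-brain barrier that also carries corticosteroids, and Akr1c14 (2.85), a reductase of steroids, were higher, as were Srd5a1 (0.69) and Tspo (2.57). Cyp7b1, a steroid hydroxylase, was lower in dendrites (-0.62) and, in cell bodies, lower in CA1 (-1.58) and higher in DG (0.91). Sts was not analysed here, and Srd5a2, Cyp17a1, Hsd3b6 and Serpina6 did not pass the filter on low values.

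Of 12 tested stress peptides and their receptors, 2 were higher and 3 lower in dendrites (median -0.35), again near the background of 45.2%. Adcyap1r1, the receptor of the peptide PACAP, was higher there (1.72) and in DG cell bodies (2.65). The oxytocin receptor Oxtr (-2.29), the vasopressin receptor Avpr1b (-2.84) and the melanocortin receptor Mc4r (-3.17) were lower in dendrites. In CA2 cell bodies Avpr1b (8.01) and Oxtr (3.56) were higher than in the other 3. Among the Sgk and Tsc22d families with known substrates of Sgk1, 6 of 12 were higher in dendrites and 2 lower (background 19.8% and 25.4%, median 1.28). Ndrg2 (3.76) and Ndrg1 (2.87), which Sgk1 phosphorylates, and Tsc22d4 (2.91) were higher, and Nedd4l (-1.23), a ubiquitin ligase under Sgk1, was lower. The astrocyte marker sums given above were higher in dendrites too, as were those of oligodendrocytes (log2 13.58 to 15.75 in cell body and 16.84 to 17.91 in dendritic libraries), and their part in these lists was not tested. Tsc22d1 was lower in dendrites (-0.62), higher in CA2 cell bodies (0.75) and lower in DG cell bodies (-1.13). Each pathway gene given with a value as higher or lower passed at an adjusted p below 0.05 in limma over all genes tested.

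By pattern over the 8 group means, among 13103 genes with a highest group mean of at least log2 of 100, those closest to Nr3c1 were Fnbp1l (r = 0.966), Mtcl1 (r = 0.962) and Sema3a (r = 0.961). Those closest to Fkbp5 were Emx2os (r = 0.970), Dscam (r = 0.966) and Fam222b (r = 0.957). Psap (r = 0.987), Pfkm (r = 0.980) and Atg12 (r = 0.974) were closest to Sgk1, and Sh2b1 (r = 0.973), Ascc3 (r = 0.964) and Cecr6 (r = 0.963) to Crhr1. These correlations are over 8 means that share libraries and mice, and are descriptions with no test.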

How the data were processed

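RNA of 24 laser-captured layers, 8 groups of 3 mice, was used. The authors deposited a gene table of log2 values, named as Salmon estimates after median normalization, and a table of log2 values of detected transcripts whose scaling is not given; both have a floor at 0. Per the submitters' processing notes, Salmon 0.9.1, STAR 2.5.1b and featureCounts 1.5.1 were among the tools and mm10 was the build; the annotation release is not stated there. Estimates are not read counts, so no counting intervals were computed, and the read depth is unknown here. No source used here gives the strand setting.

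Genes were fitted with limma 3.58.1 under R 4.3.3 (robust spread by statmod 1.5.0), keeping those at or above log2 of 10 in at least 3 libraries and with mouse as a block, a trended and robust spread and 14 residual degrees of freedom. Tests were two-sided with Benjamini-Hochberg adjustment over 24911 genes. The block rests on the animal label. As a check, deviations of same-mouse libraries had a median correlation of 0.015 over 84 pairs. Transcripts were tested with diffSplice, and after seeing the data also against the summed rest of their gene. The Nr3c2 minus Nr3c1 value was tested by exact permutation within mice. The limma gene fit and both transcript tests were tested on simulated data.

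Positions are from GENCODE M21 (GRCm38, the same coordinates as mm10). Start windows are RefSeq's (GRCm38.p6), used for 6 of the 7 genes; that of Nr3c1 was not used here. From each list up to 3 genes of smallest adjusted p were named per comparison. Bcl6, Cebpd, Ddit4, Errfi1, Klf9, Mc4r, Nedd4l, Srd5a1, Tspo and Tsc22d1 in the comparison of layers were added after their values were seen. Alternatives were another scaling (quantile, totals, totals outside the mitochondrial genome), no filter or a stricter one, a pseudocount, no trend, no block and leaving out libraries. A microarray table with 12 columns matching no sequenced library was not used. The labels also list repeat libraries of the CA2 and DG dendrites of mice 492 and 502, with no column of their own. Whether the 4 columns of those names hold the first or the repeat library is not known, and for 2 of the repeats the animal label and the title name different mice, which bears on the mouse block. Results without these 4 columns are an alternative. The list of other steroid receptors is not reported here. The members and lists were chosen with earlier results of these data known.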

Additional observations from a re-analysis of the deposited data

Results flagged for a closer look

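The step from cell bodies to dendrites differed between subregions for 3 of the 7 genes, by a limma test of that difference itself (adjusted p over all genes tested). Of all genes, 6.37% were called in this test for CA1, 7.17% for CA2, 1.73% for CA3 and 4.29% for DG. The share called in at least 1 of them was not counted. For Nr3c2 the step in CA1 was less deep than the mean step of the other 3 subregions (0.87, adjusted p 0.042) and that in CA2 deeper (-1.47, adjusted p 0.00067). For Fkbp5 the CA1 step lay above that of the other 3 (1.53, adjusted p 0.00092) and the CA2 step below (-1.37, adjusted p 0.0024). In the CA1 dendritic library of mouse 492 the listed transcript held 64.5% of the Fkbp5 estimate, and 65.1% in CA2 dendrites of that mouse. For Hsd11b1 the CA3 step was smaller (-1.59, adjusted p 0.024) and the DG step larger (2.10, adjusted p 0.00073). Each step was itself measured over 3 mice, and the comparisons share their libraries. Over other scalings, filters, models and left-out libraries the Fkbp5 CA1 value ran from 0.89 to 1.83 and the Hsd11b1 DG value from 1.82 to 2.27, and both were called in 10 of 10 settings that change the scaling, filter, model or set of libraries. The CA2 values of Nr3c2 (-1.60 to -0.81) and Fkbp5 (-1.48 to -0.72) were called in 6 of 10 each, and not under any of the 3 other scalings. The Hsd11b1 CA3 value (-1.93 to -0.98) was called in 8 of 10. The Nr3c2 CA1 value was called in 3 of 10 other settings and in 8 of 27 that leave out a library or a mouse.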

How the results depend on the processing

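Of 50 member calls, 16 were kept in every setting run, 24 in the 10 settings of scaling, filter, model and library choice, and 21 in the 27 settings that leave out a library or a mouse. The differences that turned were Nr3c1 in CA1 between layers (-0.69 on scaling to totals), Fkbp5 there (-0.29), and Nr3c2 in DG cell bodies (0.13 by quantiles, 0.0196 by totals, 0.0065 by totals outside the mitochondrial genome). The median of all genes moved as well. In CA1 between layers it went from -0.112 to -1.01 on scaling to totals. For DG cell bodies against the other 3 it went from -0.0815 to 0.0285 by quantiles and 0.513 by totals. By totals outside the mitochondrial genome it was 0.491 there. Averaged over subregions, totals moved the median between layers from -0.20 to -0.66. The cause of the turned differences was not tested.

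Called members between layers fell from 4 to 2 in CA1 with no trend or robust spread and without the 2 high CA1 dendritic libraries (a setting added after seeing the data), and to 2 in CA2 and 2 in DG without the 4 libraries that have a repeat, where fewer samples are left. Cell body counts became 2 in CA2 under both totals, and 5 in CA3 by quantiles and by totals outside the mitochondrial genome. In CA1 dendrites the count was 2 under the 3 other scalings and without the repeated libraries, and 1 without the 2 high libraries. In CA2 dendrites it was 0 by both totals, with no filter, with no trend, and without either set of libraries (limma, 1 as deposited). It was 1 in CA3 and 1 in DG dendrites under the 3 scalings, and 1 in CA3 with the stricter filter. Dendritic pairs numbered 3 by totals, 3 with no trend and 1 without the 2 high libraries. Interaction calls were 2, and transcript calls 3, without the repeated libraries; transcript calls were also 3 against the rest of the gene. The CA1 receptor difference was -1.33 by quantiles (exact permutation p 0.0312).

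Leaving out 1 library or mouse gave 5 to 6 calls between layers on average, 2 to 4 in CA1, 4 to 6 in CA2, 2 to 6 in CA3 and 3 to 5 in DG. For cell bodies it gave 1 to 4 in CA1, 2 to 5 in CA2, 1 to 3 in CA3 and 1 to 4 in DG, and for dendrites 1 to 5, 0 to 2, 0 to 1 and 0 to 0. Pairs ranged from 10 to 21 and 3 to 8, and interactions from 3 to 7. Transcripts were refitted without each mouse but not without single libraries. Their diffSplice calls between layers then ranged from 2 to 4, against 6 with all mice, and those between cell body layers from 0 to 0. The receptor difference ranged from -2.35 to -1.96 between layers, and in cell bodies from -1.54 to -1.14 in CA1, 1.74 to 2.05 in CA2, -0.02 to 0.44 in CA3 and -0.92 to -0.46 in DG. In dendrites it ranged from -0.06 to 0.63, -0.46 to 0.17, -0.29 to 0.32 and -0.35 to 0.11. With the 12 pairs averaged within mice, a setting added after seeing the data, it was -2.16 with an exact sign-flip p of 0.25, the smallest that 3 mice allow. With no replicate block the count between layers was 6, as with it, and 3 single calls were lost (Nr3c1 in CA1 dendrites, adjusted p 0.071; Fkbp5 between layers in DG, 0.070; Sgk1 in CA3, 0.098).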
